A study of Mus musculus with 7 samples.

Results

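Promoter peaks are stretches of open chromatin at or next to the place where transcription begins. The peaks described here were all those in the table of freshly sorted airway macrophages (AMs) whose annotation placed them within 1 kb of a transcription start. They numbered 19800 of 90376 peaks, or 21.9%, and were picked from the table by annotated position alone. The table itself holds only peaks found in at least 2 samples, so a weak peak could enter through the libraries of a single genotype. How this bears on the weak peaks was not tested. Accessibility was measured by ATAC-seq, an assay in which a transposase inserts sequencing adapters where DNA is not wrapped up in nucleosomes, so that read counts report how open a region is. There were 4 libraries from *Scnn1b*-Tg mice and 3 from wild-type (WT) littermates, all C57BL/6 females of 6 weeks per the study's methods and with no further treatment. *Scnn1b*-Tg mice carry a transgene for a subunit of the epithelial sodium channel under the club cell secretory protein promoter, which is active in airway epithelium and not in macrophages, and they develop mucus obstruction of the airways. AMs were sorted from lung digests as CD45+ Siglec-F+ CD11c+ cells. The labels do not say how many animals made up a library, and p-values below measure only the spread between these libraries. The comparison of the genotypes asks whether macrophages that live in mucus-obstructed airways differ from WT macrophages in how open their promoters are.

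A mammalian promoter binds RNA polymerase II together with general transcription factors. Many promoters of broadly used genes lie in CpG islands, where the CG dinucleotide is kept, and hold GC boxes bound by Sp1 and Sp3 or CCAAT boxes bound by NF-Y. Promoters of cell-type-restricted genes more often lack a CpG island. In macrophages, much of the cell-type-specific regulation runs through enhancers bound by PU.1, C/EBP and AP-1 factors, while promoters stay open in many cell types.

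The first 5 sequences show what the most open promoter peaks per kb look like, and the next 7 those peaks of smallest p between the genotypes. Each is the central 200 bases of the peak on the strand of its gene, 5′ to 3′, from the RefSeq copy of GRCm38, with matches to 12 consensus motifs on either strand in capitals. The motifs were the TATA box (TATAAA), the CCAAT box (CCAAT), the GC box (GGGCGG), NRF1 (GCGCATGCG), 2 ETS forms named for GABPA (CCGGAAGT) and PU.1 (GAGGAAGT), the cyclic AMP response element (TGACGTCA), the E-box (CACGTG), YY1 (AAGATGGCG), AP-1 (TGACTCA), C/EBP (TTGCGCAA) and STAT (TTCNNNGAA).
Khsrp: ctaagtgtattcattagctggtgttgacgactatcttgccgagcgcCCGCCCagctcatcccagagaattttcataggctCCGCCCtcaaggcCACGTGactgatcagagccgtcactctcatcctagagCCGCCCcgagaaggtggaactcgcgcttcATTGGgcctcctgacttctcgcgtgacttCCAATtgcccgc
Cic: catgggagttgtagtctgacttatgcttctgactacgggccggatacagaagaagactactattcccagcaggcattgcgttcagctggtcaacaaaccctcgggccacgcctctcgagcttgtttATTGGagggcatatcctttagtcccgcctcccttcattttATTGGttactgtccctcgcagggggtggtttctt
Osbp: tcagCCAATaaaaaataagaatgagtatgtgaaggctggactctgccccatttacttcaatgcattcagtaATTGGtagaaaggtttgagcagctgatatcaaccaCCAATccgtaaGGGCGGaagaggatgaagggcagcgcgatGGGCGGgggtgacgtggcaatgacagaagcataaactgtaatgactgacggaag
Mylpf: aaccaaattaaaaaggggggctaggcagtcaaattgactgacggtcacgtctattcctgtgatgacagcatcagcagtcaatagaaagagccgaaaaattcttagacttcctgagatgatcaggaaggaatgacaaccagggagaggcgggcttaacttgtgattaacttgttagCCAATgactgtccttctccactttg
Evi5l: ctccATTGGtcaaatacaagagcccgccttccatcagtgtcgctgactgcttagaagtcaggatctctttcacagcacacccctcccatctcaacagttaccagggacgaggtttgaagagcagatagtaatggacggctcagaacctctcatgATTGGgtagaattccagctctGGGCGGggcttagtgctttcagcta
Zdhhc18: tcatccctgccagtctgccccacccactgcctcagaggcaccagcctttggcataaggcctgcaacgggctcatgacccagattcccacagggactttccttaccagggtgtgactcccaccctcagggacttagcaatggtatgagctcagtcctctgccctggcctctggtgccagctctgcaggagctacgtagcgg
Mrgbp: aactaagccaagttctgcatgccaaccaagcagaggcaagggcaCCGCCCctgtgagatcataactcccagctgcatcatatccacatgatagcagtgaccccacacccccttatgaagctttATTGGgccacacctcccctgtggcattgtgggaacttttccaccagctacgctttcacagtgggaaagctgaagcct
Pinx1: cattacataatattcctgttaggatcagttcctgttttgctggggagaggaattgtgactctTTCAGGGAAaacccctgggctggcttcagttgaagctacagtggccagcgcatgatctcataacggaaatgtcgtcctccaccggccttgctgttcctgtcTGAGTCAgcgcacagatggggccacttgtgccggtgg
Gm29686: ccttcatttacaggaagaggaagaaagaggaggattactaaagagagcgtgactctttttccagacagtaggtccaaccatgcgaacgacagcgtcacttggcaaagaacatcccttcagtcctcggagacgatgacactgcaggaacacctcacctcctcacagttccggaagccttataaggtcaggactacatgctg
Smurf1: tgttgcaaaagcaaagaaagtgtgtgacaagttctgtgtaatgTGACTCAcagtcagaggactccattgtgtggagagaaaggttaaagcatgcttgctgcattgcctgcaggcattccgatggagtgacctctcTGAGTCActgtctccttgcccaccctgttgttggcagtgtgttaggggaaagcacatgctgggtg
Awat1: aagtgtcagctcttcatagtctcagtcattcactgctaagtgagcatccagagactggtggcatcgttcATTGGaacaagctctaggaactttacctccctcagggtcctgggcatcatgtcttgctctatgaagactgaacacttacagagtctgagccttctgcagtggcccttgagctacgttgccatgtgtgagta
Aig1: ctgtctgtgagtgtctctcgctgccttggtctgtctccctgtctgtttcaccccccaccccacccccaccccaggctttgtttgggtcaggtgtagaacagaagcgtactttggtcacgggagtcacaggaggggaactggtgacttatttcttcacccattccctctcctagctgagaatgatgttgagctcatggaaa

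The *Khsrp* window (chr17:57031755-57031954) held 14 CG dinucleotides, 2 CCAAT boxes, 3 GC boxes and 1 E-box. The *Osbp* window (chr19:11965337-11965536) held 3 CCAAT boxes and 2 GC boxes, and the *Evi5l* window (chr8:4166076-4166275) held 2 and 1. *Cic* (chr7:25267873-25268072) held 2 CCAAT boxes and *Mylpf* (chr7:127209047-127209246) held 1, both without a GC box. Of the 7 windows of smallest p, *Zdhhc18* (chr4:133614374-133614573), *Gm29686* (chr16:51985552-51985751) and *Aig1* (chr10:13861518-13861717) held none of the 12 motifs. *Mrgbp* (chr2:180581032-180581231) held 1 CCAAT box and 1 GC box, and *Awat1* (chrX:100572220-100572419) 1 CCAAT box. *Pinx1* (chr14:63899600-63899799) held 1 AP-1 and 1 STAT string, and *Smurf1* (chr5:144898612-144898811) held 2 AP-1 strings. These 7 windows held 1 to 7 CG dinucleotides each. A match is a description of letters and does not show that a factor is bound there.

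Promoter peaks were wider and stronger than peaks farther from a start, in introns or between genes. Their median width was 1162 bp, with quartiles of 657 and 1509 bp, against 511 bp for peaks 1 to 3 kb from a start, 570 bp for intronic peaks and 595 bp for distal intergenic peaks. Their median level was 471 normalized counts per kb, against 254, 139 and 133 in the same 3 classes. The normalized count is the number of reads in a peak times 1 scaling factor per library set by the authors. Over whole peaks the mean normalized count had a median of 496, the quartiles were 124 and 1170, and the extremes were 8.2 and 7896.7. The peaks belonged to 13631 gene symbols, and 1 peak had none. A single promoter peak was found at 9446 genes, 2 at 2908 and 3 or more at 1277. *Septin9*, a cytoskeletal GTP-binding protein gene with many alternative starts, had the most at 12.

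Levels differed with the position of the peak relative to the start. The 14544 peaks that covered the annotated start (73.5%) reached a median of 533 bp upstream and 686.5 bp downstream of it and had a median of 576 counts per kb. The 2475 peaks wholly upstream and the 2781 wholly downstream had medians of 214 and 219 counts per kb, near the 254 of peaks 1 to 3 kb away. In the central 200 bases, 48.4% of promoter peaks were CpG-rich (CG observed over expected of at least 0.6 and GC of at least 50%), against 4.5% of peaks 1 to 3 kb away, 0.9% of intronic and 2.7% of distal intergenic peaks. The share was 61.6% of peaks over the start, 9.2% of those upstream and 14.6% of those downstream. CpG-rich promoter peaks had a median of 629 counts per kb and CpG-poor ones 311. The 1181 peaks that covered the starts of 2 coding genes on opposite strands were stronger still, with a median of 963 counts per kb, and 79.9% of them were CpG-rich. The single promoter peak of a gene had a median of 541 counts per kb. At the 4185 genes with several, the strongest peak had 723 and the weaker ones 254.

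GC boxes and motifs of broadly used factors were more common in promoter peaks than elsewhere, and the PU.1 and AP-1 motifs were less common. A GC box was present in the central 200 bases of 34.5% of promoter peaks, against 7.14% of peaks 1 to 3 kb away, 4.16% of intronic and 5.27% of distal intergenic peaks. It was found in 56.9% of CpG-rich and 13.4% of CpG-poor promoter peaks. NRF1, whose protein drives genes of mitochondrial respiration, matched in 0.788% against 0.0652% of all other peaks. The GABPA form of the ETS motif matched in 2.49% against 0.487%, YY1 in 1.11% against 0.164%, and the cyclic AMP response element in 0.99% against 0.322%. The PU.1 form matched in 3.24% against 7.54% and AP-1 in 3.38% against 7.47% of all other peaks. The C/EBP motif, rare everywhere, matched in 0.167% against 0.0964%. TATAAA was found in 4.29% against 9.55%. At 177 promoter peaks (0.9%) it stood 35 to 22 bases before the annotated start, counted whether or not the peak covered that start. Of these 177 peaks, 63.8% covered it. These shares follow base composition as well as any role of the motif, and the 2 were not separated here.

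CCAAT was found in the central 200 bases of 20.6% of promoter peaks and 23.2% of all other peaks. Over whole peaks, which were wider at promoters, it was found in 65.9% of promoter peaks, 49.5% of peaks 1 to 3 kb away, 53.1% of intronic and 56% of distal intergenic peaks, so the order depends on the window. In the central 200 bases it was present in each of the 10 strongest promoter peaks per kb. These were *Khsrp* (decay and splicing of mRNA, 5400 counts per kb), *Cic* (a transcriptional repressor, 4971), *Osbp* (sterol transfer, 4800), *Mylpf* (a muscle myosin light chain, 4777), *Evi5l* (a regulator of Rab proteins, 4518), *Cdca3* (cell cycle, 4498), *Sp1* (the GC box factor itself, 4299), *Rab40c* (4220), *Tmbim1* (4127) and *Mon1b* (endosome to lysosome traffic, 4072). Of these 10, 80% also held a GC box. Of the 100 strongest promoter peaks per kb, 63 held CCAAT and 36% held it at least 2 times. Of the 100 strongest other peaks, 20 held it and 5% held it at least 2 times. In the highest decile by counts per kb, CCAAT was present in 37.3% of CpG-rich and 26.5% of CpG-poor promoter peaks and in 23.3% of other peaks. In the lowest decile the shares were 13%, 22.2% and 23.3%. The 10 peaks were named by their level. The deciles were drawn after their CCAAT boxes had been seen, and the relation is a description across peaks of the same libraries.

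**Figure D1:**
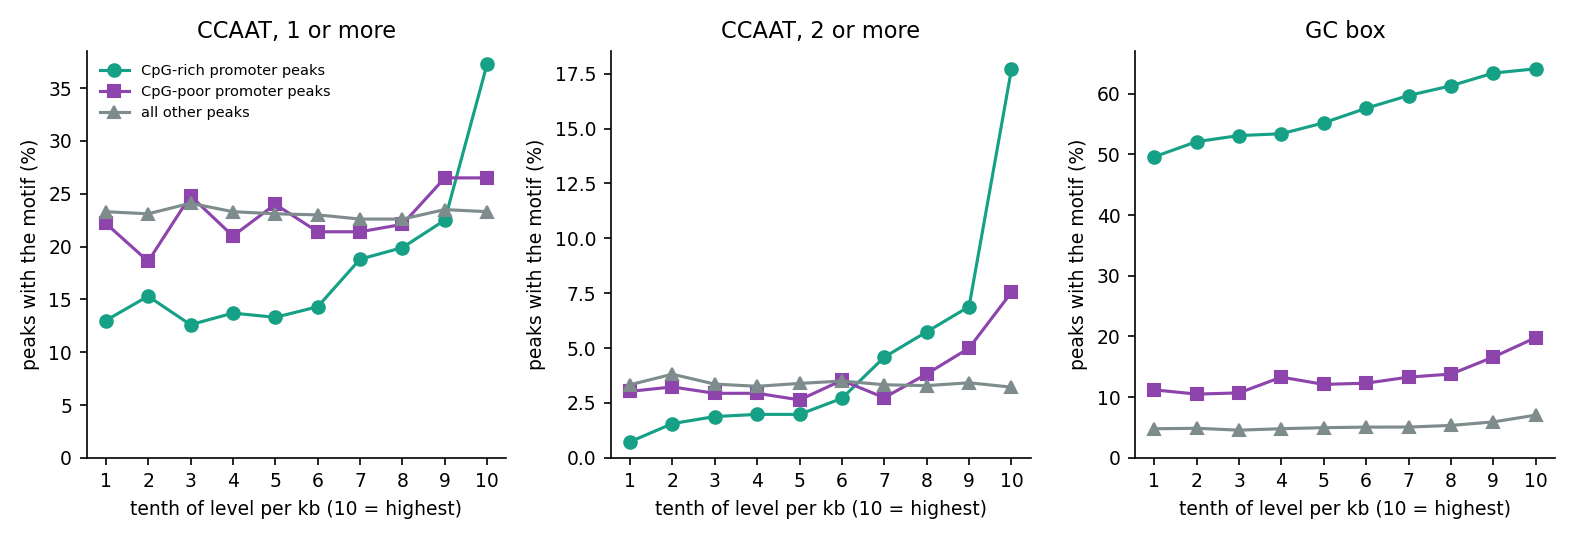
Share of peaks (%, vertical axes) whose central 200 bases held CCAAT 1 or more times (left), CCAAT 2 or more times (middle) and a GC box (right), by decile of level in normalized counts per kb (horizontal axes, 10 is highest), for CpG-rich promoter peaks, CpG-poor promoter peaks and all other peaks. CCAAT reached 37.3% in the highest decile of CpG-rich promoter peaks and stayed between 22.6% and 24.1% in all other peaks.

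Libraries of one genotype differed from each other, while the genotype means lay close together. Promoter peaks took up 42.4%, 46.9%, 46.2% and 50.5% of the reads in peaks in the *Scnn1b*-Tg libraries, and 42.6%, 46.6% and 51.1% in the WT libraries. The ranges overlapped, with means of 46.5% ± 3.32 in *Scnn1b*-Tg (SD, n = 4) and 46.8% ± 4.25 in WT (SD, n = 3). CpG-poor promoters took up 16.8% to 17.3% of these reads in *Scnn1b*-Tg and 16.8% to 17.4% in WT. The difference between libraries in this share lay in CpG-rich promoters, with 25.7% to 33.5% in *Scnn1b*-Tg and 25.9% to 34.1% in WT. Their median log2 level was 9.43, 9.72, 9.62 and 9.94 in *Scnn1b*-Tg and 9.45, 9.7 and 9.98 in WT, a range of 0.55. The median of CpG-poor promoters varied by 0.13, between 7.73 and 7.84 in *Scnn1b*-Tg and between 7.74 and 7.86 in WT. That of all other peaks varied by 0.1, and such medians do not show how single peaks differed. On the first principal component of the promoter peaks, which held 58.7% of their variance, *Scnn1b*-Tg library 4 lay at 43.42 and *Scnn1b*-Tg library 1 at -47.92, with WT library 3 at 47.14 and WT library 1 at -39.97. *Scnn1b*-Tg libraries 2 and 3 and WT library 2 lay between -4.828 and 3.723. *Scnn1b*-Tg library 4 and WT library 3 stood apart from the rest on the first component of all peaks as well. The labels give each sample a batch, and batches 1, 2 and 4 hold both genotypes while batch 3 holds *Scnn1b*-Tg only. The table's columns name no batch, so its part in the spread was not tested and no within-batch values can be given. Reads in peaks ranged between 20971521 and 56121809 in *Scnn1b*-Tg and between 28248016 and 39162909 in WT libraries.

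**Figure D2:**
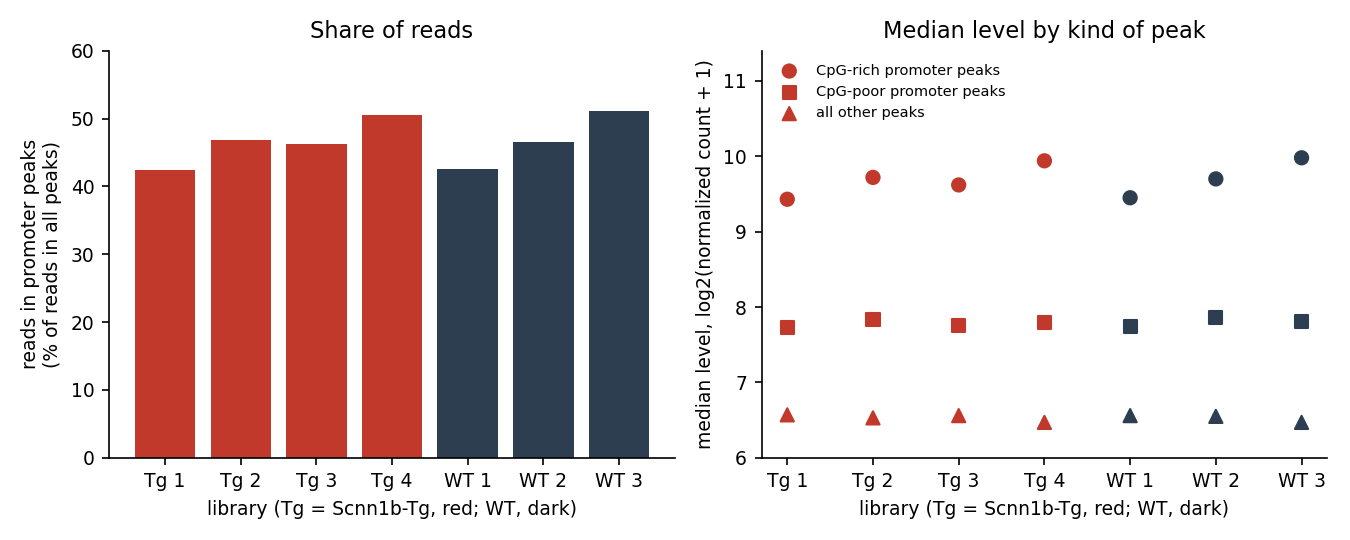
Reads in promoter peaks as a share of the reads in all peaks (left, %) and the median level on the log2(normalized count + 1) scale for CpG-rich promoter peaks, CpG-poor promoter peaks and all other peaks (right), for each *Scnn1b*-Tg (red) and WT (dark) library. *Scnn1b*-Tg library 4 and WT library 3 had the highest shares, 50.5% and 51.1%, and the highest CpG-rich medians.

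With every library in the fit, no promoter peak passed the genotype test. Limma on log2(normalized count + 1) with adjustment over all 90376 peaks called 0 of 19800 promoter peaks higher and 0 lower in *Scnn1b*-Tg at an adjusted p under 0.05, and the smallest adjusted p was 0.371, at *Zdhhc18*. Over all peaks the same test called 1 peak, a background of 0.00111%, which lay 1 to 2 kb from a start of *Igf2bp3*. At an unadjusted p under 0.05, 141 promoter peaks were higher and 52 lower in *Scnn1b*-Tg (0.712% and 0.263%), against 1.49% and 0.517% of all peaks. The libraries of the genotypes did not overlap, with *Scnn1b*-Tg above WT, at 174 promoter peaks (0.879%, against 1.92% of all peaks) and, with *Scnn1b*-Tg below WT, at 137 (0.692%, against 1.31%). All 4 shares were smaller in promoter peaks than in all peaks, which were also weaker, with a median of 121 normalized counts. Without WT library 1 this did not hold for the lower peaks, with 0.444% of promoter peaks and 0.444% of all peaks at an unadjusted p under 0.05, and 5.24% and 4.08% without overlap. EdgeR's quasi-likelihood test on the recovered reads also called 0. DESeq2 called 7 promoter peaks higher and 0 lower (0.0498% of all peaks tested were called higher), and limma with 1 surrogate variable called 11 higher and 0 lower (0.073% of all peaks higher). The 7 were all among the 11.

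Fold changes were small where promoters were strong. *Scnn1b*-Tg over WT had a median log2 fold change of -0.022 in promoter peaks and -0.008 in all peaks, and 40.5% of promoter peaks were above 0. The sign of that median depended on single libraries: it was 0.038 without *Scnn1b*-Tg library 1, 0.073 without WT library 3 and -0.115 without WT library 1. The SD of log2 fold changes over promoter peaks was 0.481 for peaks with a mean under 20 normalized counts and 0.0463 for peaks above 2000. Other peaks of the same level had 0.489 and 0.0612. An absolute log2 fold change above 1 occurred at 53 promoter peaks (0.268%), 39 higher and 14 lower in *Scnn1b*-Tg, against 0.637% of all peaks. The median level of the peaks at an unadjusted p under 0.05 was 74.2 normalized counts for those higher and 105 for those lower in *Scnn1b*-Tg, where all promoter peaks had 496. Only 12.1% and 9.6% of them were CpG-rich, 51.8% and 46.2% covered the annotated start, and none covered a pair of opposed coding starts. Among the 1947 promoter peaks above 2000 normalized counts, 0 had an unadjusted limma p under 0.05, and 0 were called by any of the tools.

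**Figure D3:**
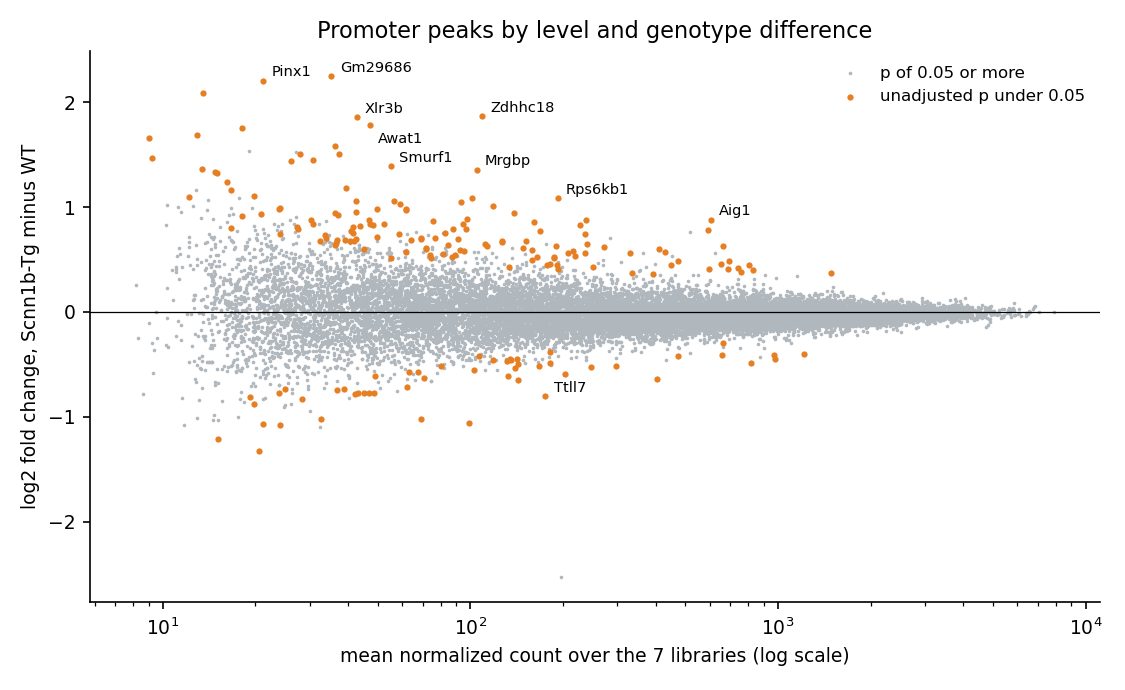
Log2 fold change of *Scnn1b*-Tg minus WT (vertical axis) against the mean normalized count over the 7 libraries (horizontal axis, log scale) for the 19800 promoter peaks, with those at an unadjusted limma p under 0.05 in orange and the 10 of smallest p named. The 141 higher and 52 lower peaks lie mostly at low levels, and the peaks above 2000 counts stay close to 0.

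**Figure D4:**
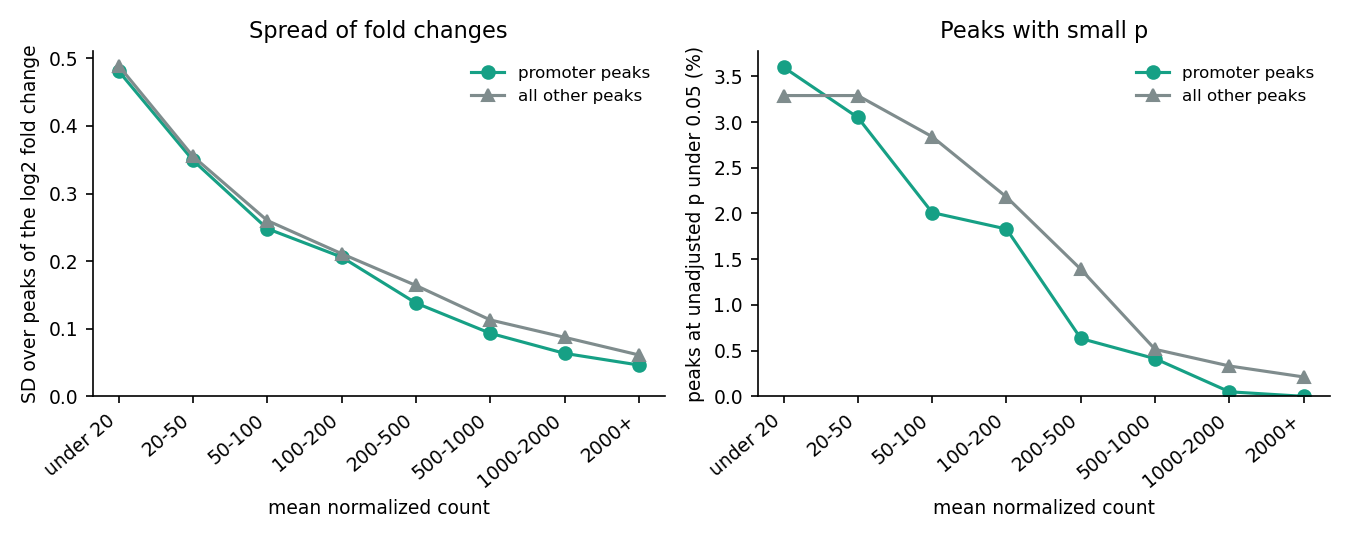
SD over peaks of the log2 fold change (left) and share of peaks at an unadjusted limma p under 0.05 (right, %), by mean normalized count, for promoter peaks and all other peaks. The SD was 0.481 in promoter peaks under 20 counts and 0.0463 in those above 2000.

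The 10 promoter peaks of smallest p were almost all higher in *Scnn1b*-Tg. *Zdhhc18* encodes an enzyme that attaches palmitate to proteins. Its peak at chr4:133613674-133615275, 67 bp from an annotated start within the gene, had 102, 121, 191 and 227 normalized counts in *Scnn1b*-Tg and 36.6, 41.5 and 45.7 in WT. All 4 *Scnn1b*-Tg libraries lay above all 3 WT libraries, and the difference on the log2 scale was 1.87 ± 0.28 (SE). The adjusted p was 0.371 in limma and 2.32e-05 in DESeq2. *Mrgbp* encodes a subunit of the TIP60 histone acetyltransferase complex. Its peak at chr2:180580945-180581319 had 105, 137, 172 and 154 normalized counts in *Scnn1b*-Tg and 51, 42.7 and 71.9 in WT, a log2 fold change of 1.36 ± 0.25 (SE), with adjusted p of 0.741 in limma and 0.00372 in DESeq2. *Pinx1*, an inhibitor of telomerase, had 19.5, 43.5, 25.3 and 42.4 normalized counts in *Scnn1b*-Tg and 5.1, 5.93 and 6.85 in WT at chr14:63899477-63899924. Its libraries did not overlap either, but the WT values rest on 6, 5 and 6 reads. Its log2 fold change was 2.21 ± 0.41 (SE), with adjusted p of 0.807 in limma and 0.0156 in DESeq2.

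A further 5 genes had the same direction and no overlap. *Aig1*, which encodes a hydrolase of fatty acid esters, was the strongest of the 10 peaks. At chr10:13861026-13862210 it had 772, 568, 882 and 785 normalized counts in *Scnn1b*-Tg and 418, 328 and 480 in WT, and the log2 fold change came to 0.88 ± 0.19 (SE). *Awat1*, an enzyme of wax ester synthesis in skin, had 32.9, 88.8, 104 and 51 counts in *Scnn1b*-Tg against 17, 15.4 and 20.6 in WT at chrX:100571941-100572699, with a log2 fold change of 1.79 ± 0.38 (SE). *Rps6kb1*, the S6 kinase downstream of mTOR, had 285, 228, 277 and 198 counts in *Scnn1b*-Tg against 156, 119 and 81.1 in WT at chr11:86519347-86520764, with a log2 fold change of 1.08 ± 0.24 (SE). *Smurf1*, a ubiquitin ligase for Smad proteins, had 68.2, 83.4, 94.9 and 54 counts in *Scnn1b*-Tg against 28.1, 20.2 and 36.5 in WT at chr5:144898314-144899111, with a log2 fold change of 1.39 ± 0.29 (SE). The predicted gene *Gm29686* had 51.1, 40.8, 85.4 and 35.6 counts in *Scnn1b*-Tg against 20.4, 4.74 and 9.13 in WT at chr16:51985475-51985830, with a log2 fold change of 2.25 ± 0.46 (SE). Limma gave an adjusted p of 1 for all 5.

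*Xlr3b* had 124, 46.2, 53.8 and 30.7 counts in *Scnn1b*-Tg against 13.6, 15.4 and 14.8 in WT at chrX:73191875-73192312, and a log2 fold change of 1.86 ± 0.41 (SE). It belongs to a family of near-identical X-linked copies, so its reads may be shared with other copies and its value is uncertain. *Ttll7*, an enzyme that adds glutamate chains to tubulin, was the one of the 10 that was lower. It had 144, 111, 128 and 151 counts in *Scnn1b*-Tg and 223, 224 and 248 in WT at chr3:146851868-146852794, a log2 fold change of -0.80 ± 0.18 (SE). The limma adjusted p of both was 1. *Zdhhc18*, *Mrgbp*, *Pinx1*, *Gm29686*, *Awat1*, *Aig1* and *Xlr3b* were the 7 called by DESeq2. The surrogate variable fit added *Rps6kb1*, *Amz2*, *Sash1* and *D630024D03Rik*. *Sash1*, a signalling scaffold, had 628, 710, 900 and 897 counts in *Scnn1b*-Tg and 441, 460 and 620 in WT. Among peaks without overlap and with a mean of at least 20 counts, the 5 lowest log2 fold changes were, beside that of *Ttll7*, -1.33 ± 0.38 (SE) at *Dhx30*, a helicase of mitochondrial ribosome assembly, -1.08 ± 0.36 at *1700092C02Rik*, -0.78 ± 0.34 at *Klk1b11*, a kallikrein-related peptidase, and -0.77 ± 0.33 at *Psd4*, an Arf6 exchange factor. None of these 5 passed limma, edgeR, DESeq2 or the surrogate variable fit.

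**Figure D5:**
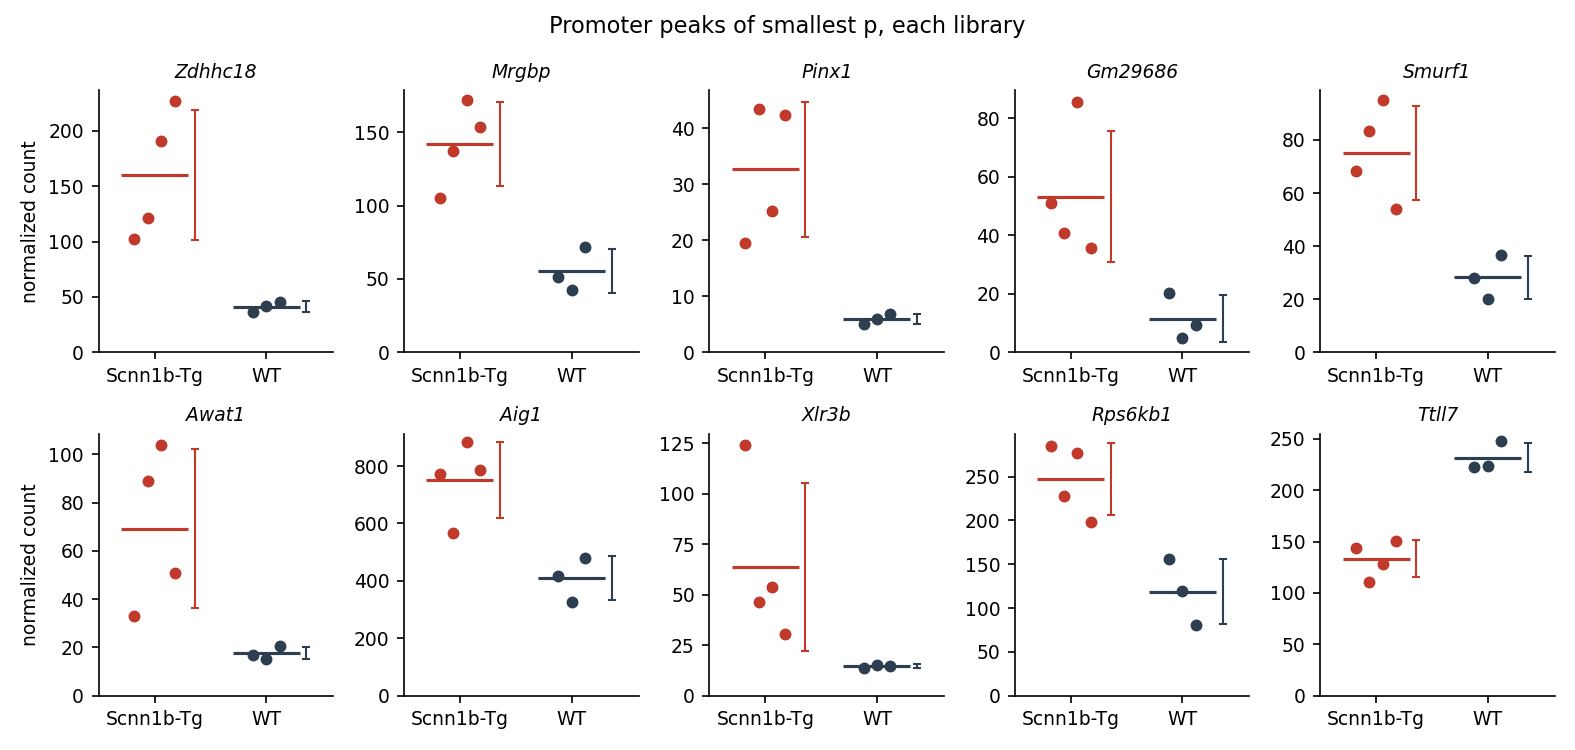
Normalized counts (vertical axes) of the 10 promoter peaks of smallest limma p in each *Scnn1b*-Tg (left, red) and WT (right, dark) library, with the group mean as a line and the SD as a bar. The libraries of the genotypes did not overlap at any of the 10, of which *Ttll7* alone was lower in *Scnn1b*-Tg.

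At *Zdhhc18*, *Smurf1*, *Mrgbp* and *Pinx1*, the promoter peak of small p was a weak one and the strong one had similar values in both genotypes. *Aig1* was an exception, since its stronger peak (chr10:13868524-13870198) averaged 1646 ± 272 counts in *Scnn1b*-Tg and 1268 ± 178 in WT (limma p 0.0378, adjusted p 1). The pattern did not hold at *Rps6kb1*, *Awat1* and *Xlr3b* either, where the peak of small p was the strongest promoter peak of the gene. The weaker promoter peaks of *Awat1* and *Xlr3b* were also higher in *Scnn1b*-Tg at an unadjusted limma p under 0.05. Those of *Rps6kb1* were not below that limit, and none of these weaker peaks passed the adjusted test. *Zdhhc18* had 3 other promoter peaks. The strongest, at chr4:133630737-133633853, averaged 901.4 ± 120 counts in *Scnn1b*-Tg and 907.2 ± 86.3 in WT (SD, n = 4 and 3). The strong *Smurf1* peak (chr5:144964785-144966591) averaged 504.8 ± 47.5 in *Scnn1b*-Tg and 515.4 ± 60.7 in WT, that of *Mrgbp* (chr2:180582008-180583440) 496 ± 125 in *Scnn1b*-Tg and 511.7 ± 117 in WT, and that of *Pinx1* (chr14:63859953-63861246) 894.1 ± 115 in *Scnn1b*-Tg and 848 ± 148 in WT. *Tank*, an adaptor protein of NF-kB signalling, had 902, 538, 846 and 612 counts in *Scnn1b*-Tg and 454, 321 and 477 in WT at one of its starts (chr2:61578351-61579863, limma p 0.00376, adjusted p 1). The CpG-rich peak at another *Tank* start averaged 2500 ± 81.9 in *Scnn1b*-Tg and 2453 ± 81.5 in WT. Over the 4185 genes with several promoter peaks, 0.741% of the strongest peaks and 1.85% of the weaker ones had an unadjusted limma p under 0.05, beside SDs of the log2 fold change of 0.135 and 0.245.

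Where 2 promoter peaks of a gene had a small p, both differed in the same direction. Of 178 genes with a promoter peak at an unadjusted limma p under 0.05, 15 had 2 such peaks. In 13 of them both were higher in *Scnn1b*-Tg and in 2 both were lower, and no gene had peaks in opposite directions. The second *Pinx1* peak, at chr14:63900446-63901639, averaged 175 ± 49.2 counts in *Scnn1b*-Tg and 88.8 ± 16.9 in WT (p 0.00268). *Atp11a*, a phospholipid flippase gene, had one peak at 280 ± 61.8 in *Scnn1b*-Tg and 156 ± 26.9 in WT and another at 283 ± 41.4 in *Scnn1b*-Tg and 174 ± 56.2 in WT. *Wdr60*, a dynein chain gene of cilia, had 51.3 ± 8.67 in *Scnn1b*-Tg and 18.6 ± 8.04 in WT at one peak and 55.3 ± 17.2 in *Scnn1b*-Tg and 25.3 ± 2.47 in WT at another. *Rgs1*, a brake on chemokine receptor signalling, averaged 844 ± 50.4 in *Scnn1b*-Tg and 650 ± 55.4 in WT at its start. The 2 genes with lower peaks were *Tcim* and *Tnfsf13b*, which encodes the B-cell survival factor BAFF. *Tnfsf13b* averaged 851 ± 89.5 in *Scnn1b*-Tg and 1120 ± 22.4 in WT at one of its starts. Peaks of 1 gene are not independent of each other, since adjacent open stretches can share fragments. These genes were chosen by their p-values, which passed no adjustment.

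Promoters of the transcription machinery and of broadly used genes were strong and close between the genotypes. Of 30 genes of general and promoter-binding transcription factors, 26 had a promoter peak, with a median level of 1480 normalized counts. Their median log2 fold change was -0.019, between -0.10 and 0.13. *Sp1* averaged 7886 ± 236 counts in *Scnn1b*-Tg and 7911 ± 965 in WT (SD, n = 4 and 3), and *Polr2a*, the large subunit of RNA polymerase II, 4252 ± 174 in *Scnn1b*-Tg and 4457 ± 143 in WT. All 18 housekeeping genes had a promoter peak, with a median log2 fold change of -0.040. *Actb* averaged 2328 ± 333 in *Scnn1b*-Tg and 2553 ± 248 in WT. None of the peaks of these lists had an unadjusted p under 0.05. In this and each list that follows, no peak passed the adjusted limma test, and a gene was taken by the peak nearest its start. Beside all list medians stand the -0.022 of all promoter peaks and the -0.008 of all peaks.

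Promoters of genes that mark macrophages were open in both genotypes, to very different degrees. All 24 macrophage lineage factors and all 28 airway macrophage markers had a promoter peak. Mean levels ran from 29 (*Runx3*) to 4724 normalized counts among the lineage factors and from 58.3 to 3127 among the markers. *Spi1*, which encodes PU.1, averaged 2350 ± 412 counts in *Scnn1b*-Tg and 2504 ± 444 in WT. *Pparg*, the nuclear receptor that shapes alveolar macrophages, averaged 1893 ± 684 in *Scnn1b*-Tg and 1729 ± 477 in WT. *Cd68*, a lysosomal glycoprotein of macrophages, averaged 2933 ± 295 in *Scnn1b*-Tg and 2860 ± 288 in WT, and *Marco*, a scavenger receptor, 387.4 ± 50.2 in *Scnn1b*-Tg and 447.1 ± 50.9 in WT. The median log2 fold change was -0.021 over the lineage factors and -0.056 over the markers. Among the markers, *Krt19*, a keratin gene, had lower counts in every *Scnn1b*-Tg library than in any WT library (2121 ± 125 in *Scnn1b*-Tg, 2401 ± 67.4 in WT, p 0.119). A second peak of *Atp6v0d2*, a proton pump subunit, averaged 834.8 ± 198 in *Scnn1b*-Tg and 615.5 ± 93.2 in WT (limma p 0.0464, adjusted p 1).

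Genes of antigen presentation on MHC class II, in which H2-A molecules display peptides loaded with the help of Cd74 and H2-DM, had a promoter peak at 12 of 13 genes. *H2-Aa* had 484, 363, 381 and 309 normalized counts in *Scnn1b*-Tg and 330, 226 and 227 in WT. The groups overlapped, since the lowest *Scnn1b*-Tg library was below the highest WT library, and the log2 fold change was 0.56 ± 0.20 (SE) at a limma p of 0.0185 and an adjusted p of 1. *H2-Ab1* had 556, 577, 525 and 534 counts in *Scnn1b*-Tg and 483, 446 and 469 in WT, without overlap (p 0.121). *Cd74* had 746, 558, 457 and 341 counts in *Scnn1b*-Tg and 478, 319 and 279 in WT, with overlap (p 0.0677). *H2-DMa*, the strongest per kb, averaged 1804 ± 83.1 in *Scnn1b*-Tg and 1877 ± 14 in WT. *H2-Eb1* averaged 294.1 ± 87 in *Scnn1b*-Tg and 212.1 ± 69 in WT, with overlap (log2 fold change 0.47, limma p 0.112). The list's median log2 fold change was 0.018, between -0.21 and 0.56, and 6 of 12 genes were above 0.

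Cytokine and activation genes showed no called promoter. Of 20 genes of classical activation 18 had a promoter peak (median log2 fold change 0.034), and of 24 genes of alternative activation 21 had one (median 0.057). *Nlrp3*, an inflammasome sensor, averaged 3493 ± 325 counts in *Scnn1b*-Tg and 3391 ± 265 in WT. *Il12a*, a subunit of interleukin-12, averaged 28.07 ± 7.94 in *Scnn1b*-Tg and 16.22 ± 8.89 in WT (p 0.0586). *Cd163*, the haemoglobin scavenger receptor, averaged 113.8 ± 16.6 in *Scnn1b*-Tg and 86.29 ± 3.48 in WT without overlap (p 0.0735). *Socs1*, an inhibitor of cytokine signalling, averaged 2774 ± 425 in *Scnn1b*-Tg and 2755 ± 570 in WT. Of 23 chemokine and chemokine receptor genes, 20 had a promoter peak (median 0.015). *Cxcr2*, the receptor for neutrophil-attracting chemokines, averaged 259.3 ± 19.5 in *Scnn1b*-Tg and 213.7 ± 13.2 in WT without overlap (p 0.113), and *Ccl6* 3052 ± 733 in *Scnn1b*-Tg and 3028 ± 614 in WT.

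Signalling and transcription factor lists were as close. Of 30 genes of NF-kB and Toll-like receptor signalling 28 had a promoter peak, the median log2 fold change was 0.004, and the *Tank* peak given above was the one at an unadjusted p under 0.05. *Irak4*, a kinase of that pathway, averaged 2322 ± 189 in *Scnn1b*-Tg and 2491 ± 323 in WT. Of 30 interferon response genes 27 had a promoter peak, with a median of -0.020. *Ifngr1*, a chain of the interferon-gamma receptor, averaged 3505 ± 149 in *Scnn1b*-Tg and 3559 ± 276 in WT, and *Ifit2*, an interferon-induced gene, 342 ± 12.5 in *Scnn1b*-Tg and 383 ± 30.8 in WT. Of 21 AP-1 and ATF genes 20 had a promoter peak (median -0.018), *Jun* with 5010 ± 207 in *Scnn1b*-Tg and 4974 ± 221 in WT. All 20 genes of TGF-beta signalling had one (median 0.008), and 2 of their peaks had an unadjusted limma p under 0.05. One was the higher *Smurf1* peak given above (p 0.000449). The other, a weak upstream peak of *Smad6*, an inhibitory Smad, had 142, 179, 157 and 164 counts in *Scnn1b*-Tg and 199, 208 and 220 in WT (p 0.0446), while *Tgfb1* averaged 2526 ± 374 in *Scnn1b*-Tg and 2641 ± 519 in WT.

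Of the metabolic and effector lists, lipid metabolism had a promoter peak at all 20 genes (median log2 fold change -0.023, with 4 above 0), lysosome and protease genes at all 24 (-0.037) and hypoxia and glycolysis genes at all 17 (-0.011). *Cpt1a*, the gate to mitochondrial fat oxidation, averaged 3626 ± 61.9 in *Scnn1b*-Tg and 3826 ± 248 in WT. *Npc2*, which moves cholesterol out of lysosomes, averaged 2660 ± 253 in *Scnn1b*-Tg and 2664 ± 366 in WT, and *Pkm*, a glycolytic kinase, 3414 ± 260 in *Scnn1b*-Tg and 3475 ± 448 in WT. Of 24 genes of phagocytosis and uptake of dying cells, 21 had a promoter peak (median 0.014). *Fcer1g*, the signalling chain of Fc receptors, averaged 1376 ± 155 in *Scnn1b*-Tg and 1606 ± 106 in WT without overlap (p 0.11). Of 22 chromatin and DNA methylation genes 21 had one (median -0.032). One promoter peak of *Dnmt3a*, a DNA methyltransferase, had 174, 267, 169 and 206 counts in *Scnn1b*-Tg and 81.6, 153 and 128 in WT without overlap (chr12:3894442-3894956, limma p 0.00923, adjusted p 1).

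Of 27 genes drawn mostly from the study's text, some of them reported there on these samples, 25 had a promoter peak. They are no independent evidence of direction. *Zdhhc18* is in the list but is not named in that text, and it held the promoter peak of smallest p here. Their median log2 fold change was 0.068, with 16 of 25 above 0. *Igf2bp3*, an RNA-binding protein gene, had 275, 539, 424 and 575 normalized counts in *Scnn1b*-Tg and 259, 340 and 365 in WT at its own start, with overlap (p 0.0938). *Mmp12*, the macrophage elastase, averaged 162.2 ± 8.77 in *Scnn1b*-Tg and 136.6 ± 30 in WT, *Anpep*, a membrane aminopeptidase, 279.1 ± 77.5 in *Scnn1b*-Tg and 217.8 ± 49.7 in WT, and *Trem2*, a lipid receptor, 1248 ± 137 in *Scnn1b*-Tg and 1139 ± 169 in WT. *Irf1*, an interferon response factor, averaged 1696 ± 259 in *Scnn1b*-Tg and 1750 ± 330 in WT, and *Arg1*, the arginase of alternative activation, 290.7 ± 25.8 in *Scnn1b*-Tg and 289.9 ± 45.9 in WT. No peak of any class was assigned to *Scnn1b* itself, so the transgene was not checked here.

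Promoter peaks at markers of other cells were found in both genotypes. Among T and B cell markers, the summed promoter level lay between 1931 and 2969 counts in *Scnn1b*-Tg and between 2021 and 2890 in WT at *Cd3d* and *Ms4a1*, while *Cd3e*, *Cd79a*, *Cd8a* and *Cd4* had no promoter peak. The 6 neutrophil markers summed to between 1332 and 1600 in *Scnn1b*-Tg and between 1360 and 1680 in WT, with *S100a8* at 1187 ± 128 in *Scnn1b*-Tg and 1293 ± 170 in WT and no promoter peak at *Ly6g*, *Mpo* or *Elane*. None of the 4 eosinophil markers had one. The 4 monocyte markers summed to between 2573 and 2825 in *Scnn1b*-Tg and between 2885 and 3374 in WT, without overlap, and *Vcan* made up most of this with 2361 ± 99.1 in *Scnn1b*-Tg and 2695 ± 232 in WT. The 5 dendritic cell markers summed to between 2004 and 2321 in *Scnn1b*-Tg and between 2054 and 2129 in WT. The 8 epithelial markers summed to between 2016 and 2707 in *Scnn1b*-Tg and between 1940 and 2648 in WT, with no peak of any class at *Sftpc* or *Sftpb*. The 5 endothelial and fibroblast markers summed to between 1029 and 1357 in *Scnn1b*-Tg and between 978.8 and 1350 in WT. By level among all promoter peaks, *Vcan* lay at percentile 94.6, *Ms4a1* at 81.7, *S100a8* at 76.4 and *Cd3d* at 69.8. *S100a9* lay at 2.59, *Ly6c2* at 4.31 and *Krt18* at 5.38. The *Ms4a1* peak lay 944 bp from its annotated start. An open promoter does not show that its gene is transcribed. In bulk libraries, cells of another type cannot be told apart from a promoter that is open in macrophages.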

How the data were processed

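ATAC-seq was done by the authors on sorted AMs, and per the study's methods mm10 was the reference for the ENCODE pipeline they ran. DiffBind built a consensus of peaks found in at least 2 samples, and ChIPseeker annotated it. The deposited signal columns hold the authors' reads per peak times 1 scaling factor per library, and 100% of values came out as whole reads within 0.0001. The table's mean, fold, p and FDR columns are the authors' own comparison and were not used. Columns name a genotype and a number that no label ties to a sample.

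Promoter peaks are rows annotated exactly Promoter (<=1kb), and all lie within 1000 bp of the annotated start. All 90376 peaks were inside the GRCm38 chromosomes, and the transcripts of the 88295 rows found in GENCODE M21 had the same coordinates. Excel-like dates in 41 promoter rows were restored to gene symbols by Entrez ID.

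Genotypes were compared with limma 3.58.1 (trended, robust) in R 4.3.3 on log2(normalized count + 1), which understates the change of low peaks, with Benjamini-Hochberg adjustment over all peaks and no filter. EdgeR 4.0.16, DESeq2 1.42.0 and sva 3.50.0 fits, other pseudocounts, scalings and filters, and fits without each library were alternatives. Scripts were tested on simulated data. Motifs were exact strings on both strands of the central 200 bases. Median reads per promoter peak were 296 to 887 in *Scnn1b*-Tg and 425 to 516 in WT libraries, and counting error limits the weakest peaks.

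Named peaks were, with 1 per gene, the 10 of smallest p, the 5 highest and 5 lowest fold changes without overlap at a mean of at least 20, the 10 highest per kb, the 5 widest, the 5 of largest SD at a mean of at least 100, 4 genes per list, and the study's genes. The promoter peaks and lists were chosen with earlier results of these data known. One marker of another cell type is not reported here.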

Additional observations from a re-analysis of the deposited data

Results flagged for a closer look

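In 4 of the 140 promoter peaks named by the rule, 1 of the 4 *Scnn1b*-Tg libraries lay far from the other 3 (Dixon's ratio past its 95% limit for 4 values). Chance alone flags about 1 in 20 such groups, so 4 of 140 is no excess. *Cd40*, a costimulatory receptor, had 307 normalized counts in *Scnn1b*-Tg library 3, where the other 3 had 214 to 227. *Smad6* had 1658 at its start in *Scnn1b*-Tg library 1, where the others had 1792 to 1809. *Sec14l1*, a lipid-binding protein gene, had 2030 in *Scnn1b*-Tg library 4, where the others had 1520 to 1597. *Ifngr2*, a chain of the interferon-gamma receptor, had 4150 in *Scnn1b*-Tg library 4, where the others had 3057 to 3227. WT groups of 3 were not tested. At *Ifngr2*, WT library 3 had 4130 counts beside 3018 and 2918 in WT libraries 1 and 2. At *Sec14l1* it had 2104 beside 1559 and 1647. At *Smad6*, WT library 1 had 1643 beside 2068 and 2047, and at *Cd40* the WT libraries had 175, 221 and 234. *Scnn1b*-Tg library 4 is one of the 2 libraries farthest from the median on the first principal component of all peaks. Its part in the *Sec14l1* and *Ifngr2* values was not tested.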

How the results depend on the processing

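No paired analysis was possible because the table's columns carry replicate numbers that no label ties to the samples' own numbers or batches. The count of promoter peaks called by limma stayed at 0 in each direction under other pseudocounts, scalings and filters, without the trend, without either sex chromosome and without each library in turn. DESeq2 called 7 higher and the fit with 1 surrogate variable 11, and edgeR called 0. At an unadjusted p under 0.05, the surrogate variable fit gave 332 higher and 236 lower in *Scnn1b*-Tg (1.68% and 1.19%, against 3.15% and 1.79% of all peaks), and peaks over the start alone gave 73 and 24, the second set being smaller by construction. Without *Scnn1b*-Tg library 4 and WT library 3, 228 were higher (1.15%, against 2.02% of all peaks). The genotypes then did not overlap at 1143 higher and 803 lower peaks (5.77% and 4.06%, against 8.3% and 7.48% of all peaks). Fewer libraries make overlap rarer. Leaving out 1 library gave between 93 (without *Scnn1b*-Tg 3) and 314 (without WT 3) higher and between 19 (without WT 2) and 107 (without *Scnn1b*-Tg 4) lower, and non-overlapping peaks numbered 258 to 952 higher and 223 to 1038 lower. In each of these fits the share was smaller in promoter peaks than in all peaks, except for lower peaks without WT 1, where 0.444% of both had an unadjusted p under 0.05 and 5.24% of promoter peaks against 4.08% of all peaks did not overlap. The share of promoter peaks above 0 ranged between 24% without WT 1 and 66.6% without WT 3, and the median log2 fold change between -0.115 and 0.073. Of 140 named peaks, 63 changed sign under at least 1 alternative, none of which passed the limma threshold. At a CG ratio of 0.75, 35.8% of promoter peaks were CpG-rich. Low read numbers limit the weakest peaks. Apart from these, the cause of the changes was not tested.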

Other observations

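Some promoter peaks differed between libraries far more than between genotypes. *Cdk5rap1*, which encodes an enzyme that modifies mitochondrial transfer RNA, had 226, 6.35, 1.58 and 413 normalized counts in *Scnn1b*-Tg libraries and 159, 132 and 444 in WT libraries. The peak thus held almost no reads in *Scnn1b*-Tg libraries 2 and 3 alone, with 7 and 1. Repeats made up 57.6% of its length, and whether the chromatin was closed in these libraries was not tested. *Pygm*, the muscle glycogen phosphorylase gene, had 125, 290, 267 and 727 counts in *Scnn1b*-Tg and 166, 286 and 909 in WT. *Tll2*, a metalloprotease gene, had 70.6, 126, 150 and 439 in *Scnn1b*-Tg and 117, 119 and 426 in WT. *Sesn2*, a stress-induced regulator of mTOR signalling, ran the other way, with 346, 215, 183 and 64.5 in *Scnn1b*-Tg and 350, 210 and 68.5 in WT. At *Pygm* and *Tll2* the highest values were those of *Scnn1b*-Tg library 4 and WT library 3, and at *Sesn2* the lowest. These are the 2 libraries farthest from the median on the first principal component of all peaks.

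The widest promoter peak, at *Ifitm10*, measured 3904 bp and averaged 2450 ± 1040 counts in *Scnn1b*-Tg and 2408 ± 762 in WT (SD, n = 4 and 3). *Synj2*, a phosphoinositide phosphatase gene, had a peak of 3840 bp with 6370 ± 368 counts in *Scnn1b*-Tg and 6429 ± 406 in WT. Chromosome 8 held 9 of the 52 promoter peaks that were lower in *Scnn1b*-Tg at an unadjusted limma p under 0.05 (17.3%) and 6 of the 141 that were higher (4.3%), beside 5.2% of all promoter peaks. Of the lower peaks on chromosome 8, 2 belonged to *Tcim* and 2 to *Tnfsf13b*, and peaks of 1 gene are not independent of each other. The share on chromosome 8 was noticed after the values were seen and was not tested.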
